A study of Rattus norvegicus with 30 samples.

Results

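The cortex part of the promoter methylation data was a count table of 10 libraries, 5 from rats with traumatic brain injury (TBI) and 5 from sham-operated rats, out of 30 libraries of 3 brain regions in the series. All 10 were taken first, and the comparison was then repeated with 8 libraries, 4 against 4, because the whole promoter profiles of sham rat 4 and TBI rat 6 resembled hippocampus. The animals were adult male Sprague-Dawley rats. TBI was made by lateral fluid percussion, a pressure pulse onto the exposed dura over the left parietal lobe, and the sham group (rats 1 to 5) had the same anaesthesia and craniectomy without the pulse that rats 6 to 10 received. Perilesional cortex, the tissue around the lesion, was collected 3 months after the operation. The groups shared strain, sex, age class and surgery, and each library came from 1 rat. A dissected block holds neurons, glia and vessels, so a change in methylation per cell and a change in cell mixture cannot be told apart in these counts.

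In methyl-CpG binding domain sequencing (MBD-seq), a protein domain with affinity for methylated CpG dinucleotides pulls fragments out of sheared DNA, and what it retains is sequenced. Cytosine methylation of a promoter with many CpG sites is commonly found with low transcription, and such promoters are mostly unmethylated in brain. The count of a promoter window rises with its methylation, and also with its CpG content and the strength of the capture, so it is compared between libraries and gives no percentage of methylated sites. There were 22307 windows in the table, under 20196 different Ensembl gene identifiers, and no gene symbols. Windows are therefore named by identifier, genes of interest could not be looked up, and the tissue label could not be checked against marker genes. Whole profiles were compared instead, which cannot identify the tissue of a library on its own.

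Total promoter counts ranged from 1862708 to 2439938 in sham and from 1948924 to 3992056 in TBI cortex, and a tested window had a median of 65.4 counts per library. The 10 libraries did not form a sham and a TBI set. Of the 10, rats 2, 3, 5, 7, 8 and 9 were alike. Over 19758 promoters matched between regions, Pearson's r of log2 CPM (counts scaled to a common library size) between these libraries was 0.934 to 0.943 in the 6 pairs within a group and 0.926 to 0.946 in the 9 pairs of a TBI with a sham library. The other 4 libraries departed in opposite ways, and each way held 1 sham and 1 TBI rat.

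Sham rat 4 and TBI rat 6 lay near hippocampus. Their r with the median hippocampus library was 0.967 and 0.962, against 0.898 and 0.878 with the median of the other 9 cortex libraries. In the other 8 libraries the r with hippocampus was 0.566 to 0.906, and each was closer to the other cortex libraries. A set of 1853 promoters was lower in hippocampus by at least 1 on the log2 scale and a set of 2143 was higher by as much, both chosen without rats 4 and 6. Placed on a scale where 0 is the median of the 8 cortex libraries and 1 is hippocampus, rat 4 stood at 0.758 on the lower set and 0.921 on the higher set, and rat 6 at 0.924 and 0.908. The remaining 8 stood between −0.29 and 0.161 on the lower set and between −0.486 and 0.236 on the higher set. These 8 defined the 0 of the scale and were used to choose the sets, so their place around 0 follows from that. The r with thalamus was 0.863 in rat 4, 0.848 in rat 6, 0.849 in rat 1 and 0.638 in rat 10, all below the 0.923 to 0.938 of the 6 alike libraries.

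**Figure D1:**
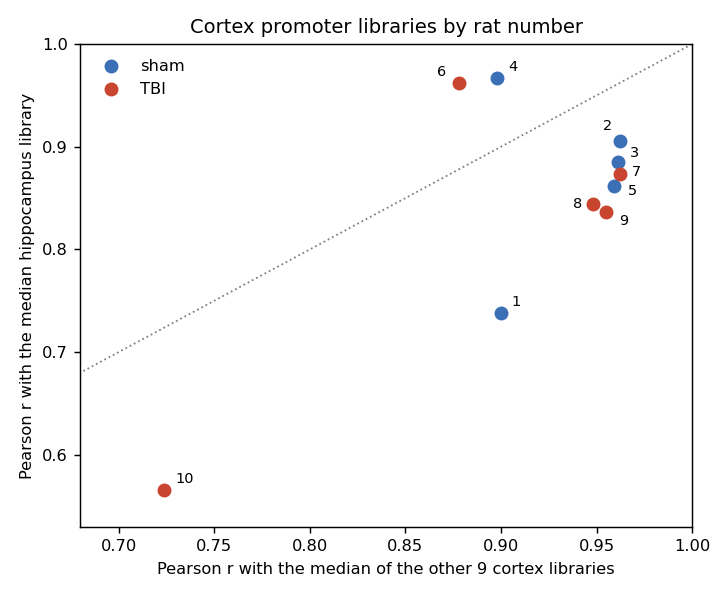
Each point is 1 cortex library, labelled by rat number, with its Pearson r of log2 CPM with the median of the other 9 cortex libraries (x axis) and with the median hippocampus library (y axis). The dotted line marks equal values, and rats 4 and 6 lie above it at 0.967 and 0.962 with hippocampus. Rat 10 lies lowest on both axes, at 0.724 and 0.566.

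Sham rat 1 and TBI rat 10 departed the other way on the scale from cortex to hippocampus. They stood at −0.251 and −0.29 on the lower set and at −0.257 and −0.486 on the higher set. The share of counts in the top 5% of windows did not separate them from rats 4 and 6. It was 40.9% in rat 1, 57.0% in rat 10, 36.4% in rat 4 and 47.1% in rat 6. In the 6 alike libraries it was 24.3% to 27.2%. The 21 windows that held over 1% of the counts of any library (20 identifiers) took 29.7% of all counts in rat 1 and 48.7% in rat 10, and 7.72% to 10.2% in the alike libraries. Rat 6 had 28.6% and rat 4 had 12.6% in these windows. Rat 10 was the highest library in 14 of the 21. Whether the 21 windows share reads with each other was not tested.

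Outside those few windows, the profiles of rats 1 and 10 were flatter than the rest, and those of rats 4 and 6 steeper. The tested windows were put into 5 classes of equal size by mean CPM. After TMM scaling (trimmed mean of M values), rat 10 had a median log2 difference from the sham libraries of 0.79 in the lowest class and −0.80 in the highest. In rat 1, measured against the other sham libraries, these were 0.58 and −0.56. In rat 4 they were −0.48 and 0.58, and in rat 6 −0.41 and 0.50. The 6 alike libraries lay between −0.05 and 0.10 in the lowest class and between −0.15 and 0.05 in the highest. The classes were cut on the mean of the same libraries, so these values are a description. The promoters higher in hippocampus also had the higher levels in cortex. In the cortex libraries without rats 4 and 6, their median log2 level over the library median was 0.806, against −0.556 for the promoters lower in hippocampus. Likeness to hippocampus and steepness of the profile therefore cannot be told apart by these measures.

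**Figure D2:**
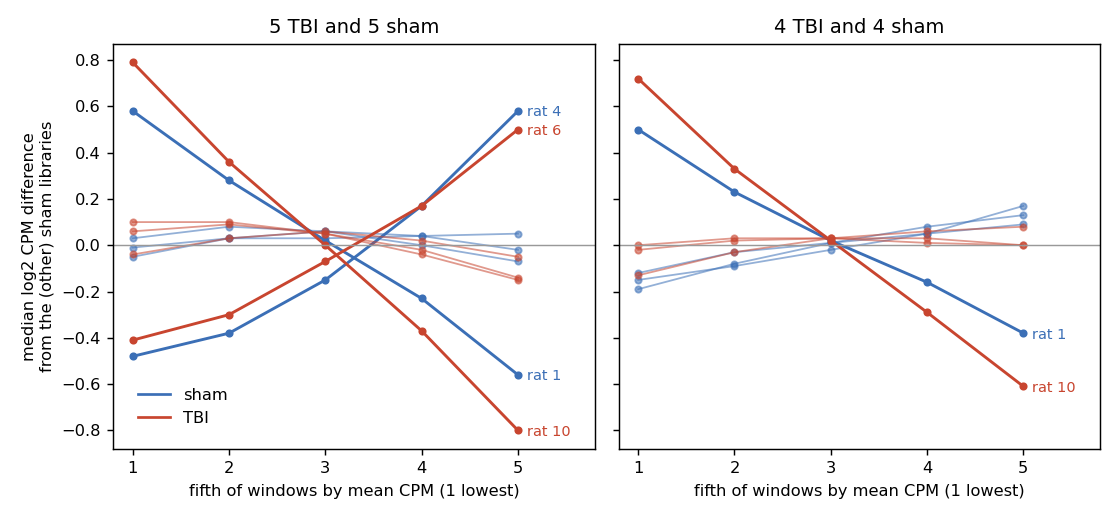
The median log2 CPM difference of each library from the sham libraries (from the other sham libraries for a sham rat) is plotted for 5 classes of windows from the lowest to the highest mean CPM, for all 10 libraries (left) and for 8 (right). Rats 1 and 10 fall from left to right, from 0.58 to −0.56 and from 0.79 to −0.80 with 10 libraries, rats 4 and 6 rise, and the others stay near 0.

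A difference between TBI and sham passed the test in 0 of 5 library measures. With 5 against 5, the mean total was higher in TBI by 404000 counts (exact two-sided permutation test, adjusted p = 0.683 over the 5 measures). The share of counts in the top 5% of windows was 35.6% ± 15.4 (SD, n = 5) in TBI and 31.4% ± 6.82 (SD, n = 5) in sham, and the r with hippocampus 0.816 ± 0.149 and 0.872 ± 0.0843. All 5 adjusted p values were 0.683 with 5 against 5 and 1 with 4 against 4 by this exact test. The smallest unadjusted p these designs allow is 0.00794 with 5 against 5 and 0.0286 with 4 against 4.

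With all 10 libraries, no promoter window passed the test for a difference between TBI and sham cortex. Of the 22110 tested by quasi-likelihood in edgeR, 0 (0%) reached an adjusted p below 0.05, and the smallest adjusted p was 1 after rounding. At an unadjusted p under 0.05, 118 windows (0.534%) were higher and 53 (0.24%) lower in TBI, together 0.773% of those tested. If no window differed, a share of about 0.05 would be expected under this threshold, and the observed share was smaller. DESeq2 and limma voom with library weights also called 0 windows. With scaling by library totals in place of TMM, 23 windows were higher and 18 lower at the unadjusted threshold.

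The fold changes were small and the spread between rats was wide. The 5th and 95th percentiles of the log2 fold change were −0.29 and 0.38, and the biological coefficient of variation, the between-rat spread estimated by edgeR, was 0.299. The median CV of a window was 24.1% in sham and 29% in TBI. The 95% confidence interval of the log2 fold change extended a median of 0.53 to either side. It lay wholly within 2-fold in 84.9% of windows and within 1.5-fold in 33.2%, so a change of 2-fold or more lay within the interval of the remaining windows, and one of 1.5-fold within that of most.

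The values of the groups did not overlap in 26 windows higher in TBI (0.118% of those tested) and 17 lower (0.0769%). Their log2 fold changes ran from −0.71 to 0.69, with a median size of 0.41. If the 10 libraries were assigned to groups at random, a window would be apart in either direction with probability 0.00794. The observed share of windows apart was smaller. Of the 171 windows past the unadjusted threshold, 26 were among these 43. The log2 fold change exceeded 1 in size in 43 windows (0.194%), of which 42 were higher in TBI, and rat 10 was the highest library in 41 of the 43. Without rat 10, 27 windows passed that size, and 6 did without rats 1 and 10, an omission chosen after the data were seen. The highest log2 fold change was 4.03 and the lowest −1.03. Some windows over 1 in size had nearly the same values under different identifiers. ENSRNOG00000033299, ENSRNOG00000031979 and ENSRNOG00000031053 had mean CPM of 4526, 4579 and 4588 in sham and 11670, 11710 and 11760 in TBI. Whether such windows share reads was not tested, so their number may overstate the number of separate changes.

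**Figure D3:**
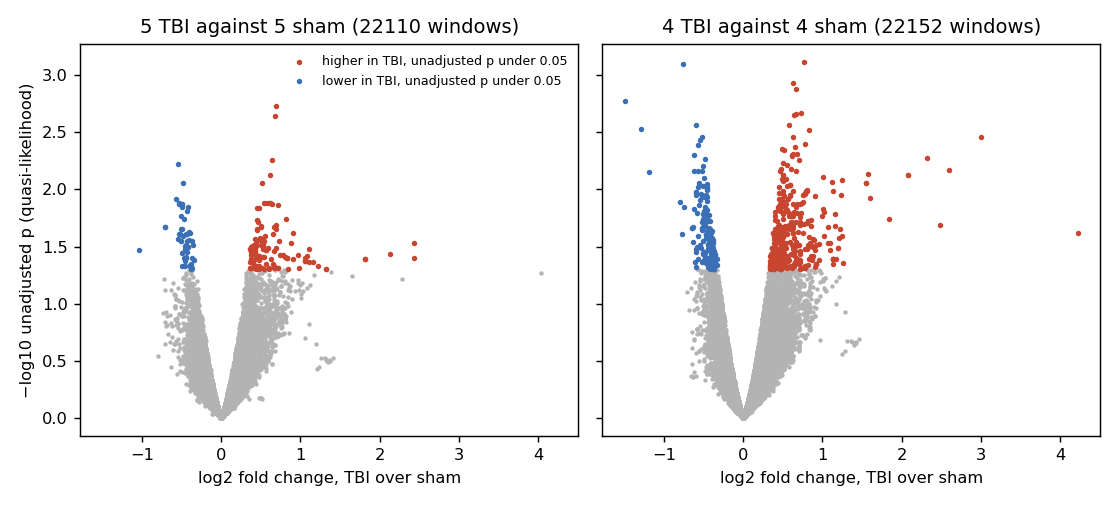
Each point is 1 promoter window with its log2 fold change (TBI over sham, x axis) and −log10 of the unadjusted p of the quasi-likelihood test (y axis), for 5 against 5 (left) and 4 against 4 (right). Coloured points passed the unadjusted threshold of 0.05, 118 higher and 53 lower on the left, 375 higher and 176 lower on the right. No window passed the adjusted threshold in either panel.

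Without rats 4 and 6, the spread was narrower and still no window was called. The quasi-likelihood test covered 22152 windows, and 0 (0%) reached an adjusted p below 0.05, with 0.999 as the smallest. At the unadjusted threshold, 375 windows (1.69%) were higher and 176 (0.795%) lower in TBI, together 2.49%. That too was below a share of 0.05, and these windows held 513 distinct count profiles. DESeq2 and limma voom called 0 here too. The coefficient of variation fell to 0.219, and the median CV to 17.8% in sham and 21.2% in TBI. The confidence interval extended a median of 0.44 to either side, within 2-fold in 88% of windows and within 1.5-fold in 46.3%. The 5th and 95th percentiles of the log2 fold change were −0.31 and 0.45, against −0.29 and 0.38 with all libraries. The comparisons share 8 libraries, so their counts are not independent of each other.

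The groups did not overlap in 207 windows higher in TBI (0.934%) and 155 lower (0.7%), with log2 fold changes from −1.19 to 1.04 and a median size of 0.37. With 4 against 4, random assignment gives a probability of 0.0286 for this, and the observed share was again smaller. The log2 fold change exceeded 1 in size in 67 windows (0.302%), 64 of them higher in TBI, and rat 10 was the highest library in 64.

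Rats 4 and 6 were left out for their likeness to hippocampus, so a fall of the spread in windows that separate hippocampus from cortex follows from that choice and is given as a description. In the 1853 promoters lower in hippocampus (1966 windows in the 5 against 5 fit), the median SD of log2 CPM went from 0.58 to 0.35 in sham and from 0.71 to 0.34 in TBI. In the promoters higher in hippocampus it went from 0.53 to 0.31 and from 0.64 to 0.37. In all other matched windows it went from 0.30 to 0.24 and from 0.37 to 0.29. With 5 against 5, 1 (0.0509%) of the windows lower in hippocampus and 1 (0.0439%) of those higher passed the unadjusted threshold. Among the other matched windows 164 (0.977%) did. With 4 against 4, 55 (2.79%) and 70 (3.08%) passed, beside 2.45% of the other matched windows. The median log2 fold change of TBI over sham in these sets was 0.06 and −0.15 with all libraries and 0.11 and −0.19 with 8.

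The median difference went with the level of a window. In the 5 against 5 fit the median log2 fold change was 0.13 in the lowest class (mean CPM 4.12 to 15.9) and 0.06, 0.00, −0.04 and −0.11 in the next 4. In the 4 against 4 fit it was 0.17 in the lowest class and −0.12 in the highest. Of the windows past the unadjusted threshold in the lowest class, 28 were higher and 3 lower with 5 against 5, and 63 were higher and 1 lower with 4 against 4. With 5 against 5, the next 4 classes had 41, 38, 5 and 6 higher and 6, 23, 19 and 2 lower, so the counts of the highest class did not follow the medians. With 4 against 4 they had 132, 122, 44 and 14 higher and 25, 62, 63 and 25 lower. The difference of rat 10 from sham had the same course and exceeded that of every other TBI rat in the lowest class of either fit, by 0.79 against 0.10 at most with 10 libraries. With 8 libraries, TBI rats 7, 8 and 9 lay from −0.13 to 0.00 in the lowest class and from 0.00 to 0.08 in the highest. Rat 10 was at 0.72 and −0.61, and sham rat 1 at 0.50 and −0.38. The median fold changes of the classes were not computed without rat 10. The counts at the unadjusted threshold were repeated without it.

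Rat 10 was the highest of the 10 libraries in 83 (70.3%) of the 118 windows higher in TBI at the unadjusted threshold, beside 23.1% of all tested windows. It was the lowest in 22 (41.5%) of the 53 lower windows, beside 28.5% of all. With 4 against 4 it was the highest in 271 (72.3%) of 375, beside 27.8%, and the lowest in 102 (58%) of 176, beside 30.5%. Without rat 10, 65 windows were higher and 105 lower at the unadjusted threshold with 9 libraries, and 287 were higher and 316 lower with 7. With rats 1 and 10 both left out of the 10 libraries, more were higher again, 113 against 64 lower. The coefficient of variation with 7 libraries was 0.156, and the smallest adjusted p was 0.099.

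Other libraries moved the counts as well, and the quasi-likelihood test with TMM called 0 windows at each omission of 1 rat. Without TBI rat 6, 429 windows were higher and 698 lower at the unadjusted threshold, 5.08% of those tested. Without sham rat 1, 255 were higher and 72 lower. Omission of sham rat 5 gave 64 higher and 28 lower, and of sham rat 2 gave 68 and 39. With rats 4 and 6 left out throughout, the further omission of rat 1 gave 905 higher and 507 lower (6.37%), that of TBI rat 7 gave 630 and 346, that of sham rat 3 gave 216 and 112, that of sham rat 5 gave 214 and 118, and that of sham rat 2 gave 230 and 128. With rats 1, 4, 6 and 10 all left out, 3 TBI and 3 sham libraries remained, the coefficient of variation was 0.113, and 654 windows were higher and 757 lower (6.39%). The smallest adjusted p was 0.19, and 93.9% of the confidence intervals lay within 2-fold. This omission was chosen after the data were seen.

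**Figure D4:**
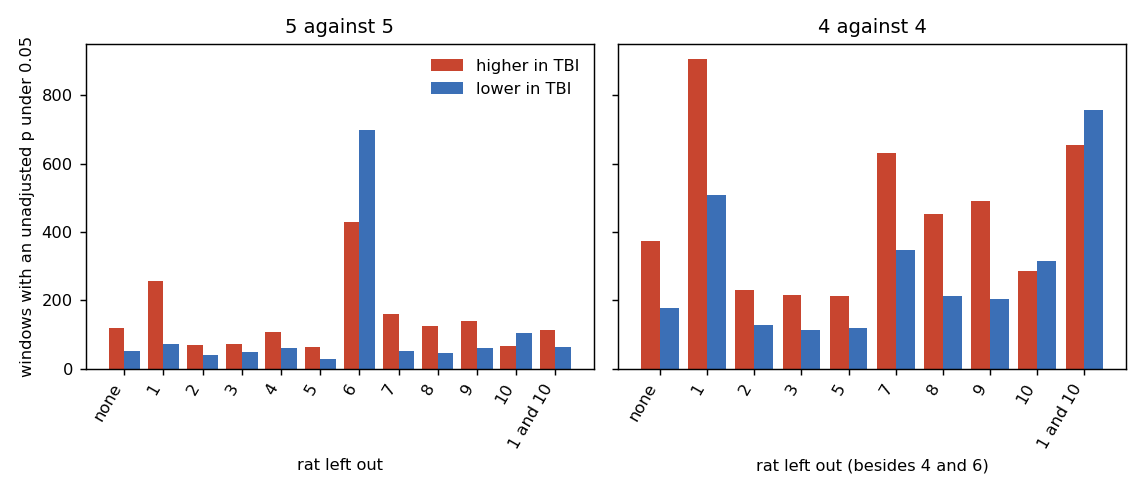
Bars give the number of windows with an unadjusted p under 0.05 that were higher or lower in TBI when the named rat was left out, for the fit of 10 libraries (left) and the fit without rats 4 and 6 (right). The counts run from 64 and 28 (without rat 5) to 429 and 698 (without rat 6) on the left, and without rat 10 more windows are lower than higher in both panels, 65 and 105 on the left and 287 and 316 on the right.

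An exact test with 1 dispersion shared by all windows did call windows. With 5 against 5 it called 7 windows scaled by library totals and 25 with TMM, all higher in TBI. With 4 against 4 it called 10 (8 higher) and 41 (39 higher), and the quasi-likelihood test with library totals called 6 (5 higher). Rat 10 was the highest library in every one of the higher calls. Among the 25, the level of rat 10 was 2.6 to 19.3 times that of the next library, with a median of 3.01, and the next library was sham rat 1 in 25 of 25. Without rat 10 the exact test with TMM called 14 windows with 9 libraries and 22 with 7, all of them lower in TBI. Of the former calls, 0 of 25 and 2 of 41 were called again in the same direction. Whether the called windows share reads was not tested, so they may not be separate changes.

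The windows with the smallest p values are given as examples. They were picked for their p, so the values describe them and none passed the adjusted threshold. With 5 against 5, the 5 highest-ranked windows among those higher in TBI had log2 fold changes of 0.52 to 0.69, and the 5 among those lower had −0.57 to −0.48. The groups were apart in 5 and 2 of them.

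The window of ENSRNOG00000011901 had 19.2, 19.1, 18.8, 13.9 and 20.5 CPM in sham rats 1 to 5 and 29.3, 30.1, 28.7, 22.7 and 36.9 in TBI rats 6 to 10. Every TBI rat lay above every sham rat. The log2 fold change was 0.69 (SE 0.186, adjusted p = 1 by the quasi-likelihood test), and counts per library were 25 to 108. The window of ENSRNOG00000014642 had 20.9, 18.7, 18.3, 15 and 17.1 CPM in sham and 27.2, 26.5, 22.7, 30.5 and 36.9 in TBI. The groups were again apart, with a log2 fold change of 0.67 (SE 0.187, adjusted p = 1 by the quasi-likelihood test). Rat 10 was the highest in both windows.

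The window of ENSRNOG00000030449 had 33.3, 40.0, 44.2, 52.2 and 36.2 CPM in sham and 31.0, 31.4, 28.2, 22.7 and 27.4 in TBI. It was lower in TBI with no overlap, and rat 4 was the highest sham library. The log2 fold change was −0.55 (SE 0.174, adjusted p = 1 by the quasi-likelihood test). The window of ENSRNOG00000048934 had 41.8, 40.9, 54.1, 50.5 and 48.1 CPM in sham and 35.8, 33.2, 34.6, 36.6 and 28.0 in TBI. The groups were apart, and the log2 fold change was −0.48 (SE 0.163, adjusted p = 1 by the quasi-likelihood test). Without rats 4 and 6, the log2 fold changes of these 4 windows were 0.64, 0.67, −0.46 and −0.46.

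In the 4 against 4 fit the 5 leading windows had log2 fold changes of 0.62 to 0.77 on the higher side, all 5 with groups apart, and of −1.49 to −0.52 on the lower side, 1 of 5 with groups apart. The window of ENSRNOG00000003590 had 17.8, 21.5, 15.8 and 15.9 CPM in sham rats 1, 2, 3 and 5 and 28.9, 27.2, 26.3 and 38.6 in TBI rats 7 to 10. The groups did not overlap, and the log2 fold change was 0.77 (SE 0.201, adjusted p = 0.999 by the quasi-likelihood test). With all 10 libraries it was 0.70. The second of the 2 windows of ENSRNOG00000010580 had 24.6, 21.1, 23.2 and 24.3 CPM in sham and 33.1, 39.9, 29.1 and 41.2 in TBI. Its sham values lay close together, and its log2 fold change was 0.62 in both fits.

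In both printed windows on the lower side the groups overlapped. The window of ENSRNOG00000033458 had 24.6, 46.7, 42.3 and 34.7 CPM in sham and 27.5, 22.2, 19.9 and 18.6 in TBI. Sham rat 1 lay among the TBI rats, and the log2 fold change was −0.76 (SE 0.197, adjusted p = 0.999 by the quasi-likelihood test) and −0.91 without rat 1. The window of ENSRNOG00000002413 had 92.1, 77.9, 222.3 and 20.3 CPM in sham and 16.8, 39.0, 50.4 and 40.5 in TBI. Sham rat 3 was high and sham rat 5 was within the range of TBI, so the groups overlapped. The log2 fold change was −1.49 (SE 0.422) with 8 libraries, −0.33 with 10 and −0.79 without sham rat 3.

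**Figure D5:**
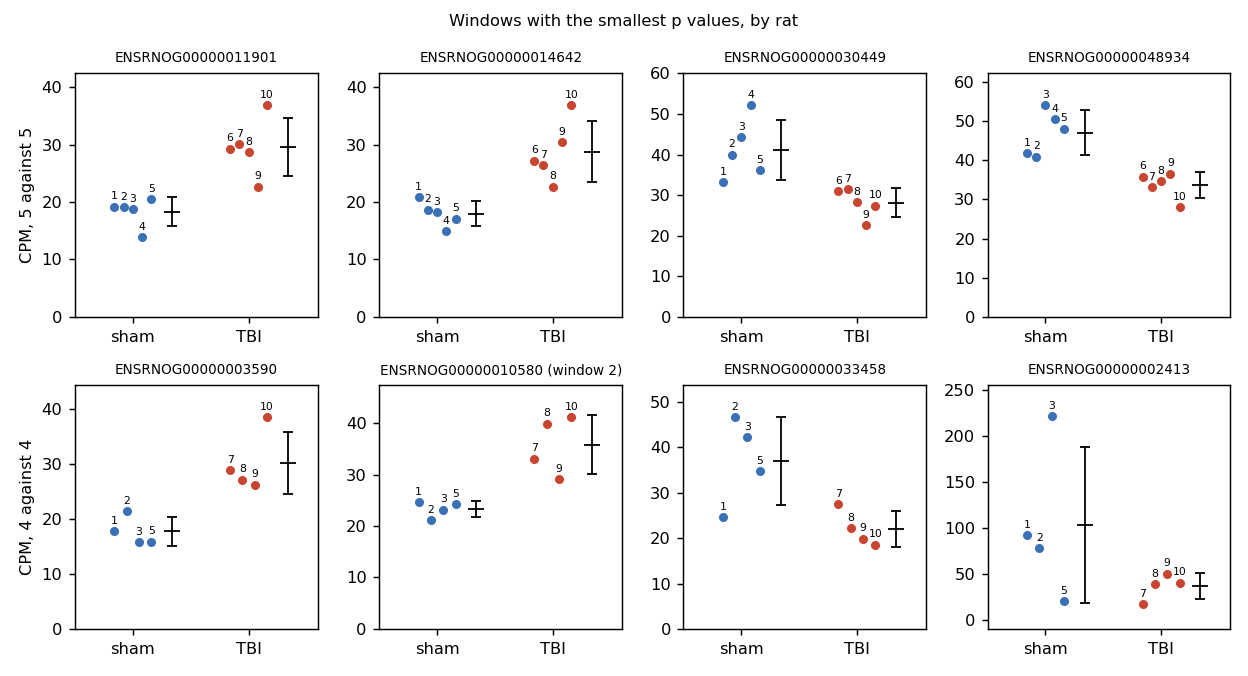
Each panel plots the CPM of 1 promoter window per rat (points with rat numbers) in sham and TBI cortex, with the mean and SD beside them, for the leading windows of the 5 against 5 fit (top) and of the 4 against 4 fit (bottom). The 4 top panels show groups apart, and the last 2 bottom panels show overlap, with sham rat 3 at 222.3 CPM in the window of ENSRNOG00000002413.

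The effect of TBI in the cortex was then set against that in the hippocampus and thalamus of the same rats. The interaction of tissue and TBI, tested by quasi-likelihood, reached an adjusted p below 0.05 in 0 of 19641 windows (0%) for hippocampus, and 308 passed the unadjusted threshold. For thalamus it had 0 of 19677 (0%) and 157. Without the cortex libraries of rats 4 and 6 these were 0 of 19662 (0%) with 558, and 0 of 19696 (0%) with 337. In each of these fits the count at the unadjusted threshold was below a share of 0.05 of the windows tested. These fits did not include rat as a block, although the libraries are paired by rat. DESeq2 was not run on the interactions.

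The log2 fold changes of the printed windows in the other regions are set beside those in cortex as a description, since the windows were picked for their p in cortex. ENSRNOG00000010580 is left out, because it had 2 windows in each of the other regions. ENSRNOG00000011901 had 0.27 in hippocampus and −0.02 in thalamus, beside 0.69 in cortex. ENSRNOG00000014642 had 0.37 and −0.13, and ENSRNOG00000030449 had −0.15 and 0.18. ENSRNOG00000048934 had −0.26 and 0.02. In thalamus, ENSRNOG00000048934 had 45.1 to 49.5 CPM in sham and 47.4 to 49.3 in TBI, and the groups overlapped. ENSRNOG00000003590 had −0.34 in hippocampus and 0.18 in thalamus, and ENSRNOG00000033458 had 0.12 and 0.13. ENSRNOG00000002413 had 3.53 in hippocampus, where TBI rat 9 was at 14893.4 CPM and sham rats were at 57.1 to 607.9, and 0.14 in thalamus, where no library exceeded 12.8.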

How the data were processed

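MBD-seq counts of the perilesional cortex of 5 TBI and 5 sham-operated rats were analysed, with hippocampus and thalamus of the same rats for reference. The authors captured methylated DNA, sequenced it for 36 cycles, mapped the reads to the rat Rnor_5.0 genome with STAR without splicing, and deposited whole-number read counts per promoter window, 5000 bp upstream to 200 bp downstream of each start site, with R 3.1.0 per the labels. No normalization had been applied. Exon and gene body counts were not used here.

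In R 4.3.3 with edgeR 4.0.16, filterByExpr kept windows with enough counts (min.count 10, min.total.count 15), which were scaled by TMM and compared by the quasi-likelihood F test with Benjamini-Hochberg adjustment over all windows and a threshold of 0.05. Levels are given as CPM after TMM, and 1 was added before log2. The Pearson correlations and the scale from cortex to hippocampus used CPM by the total of the matched windows, without TMM. For that scale and its sets of promoters, log2 values were also centred on the median window of each library. For library measures an exact permutation test of the difference of means was used, two-sided. Alternatives were library totals, other filters, TMM without the extreme windows, unique windows, DESeq2 1.42.0, limma 3.58.1 voom with library weights, 1 surrogate variable from sva 3.50.0, an exact test with 1 dispersion, and leaving out each rat. The script was tested on simulated counts. Tables and figures were made with Python 3.11.15, pandas 2.3.3 and matplotlib 3.10.9.

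The named windows were the 5 with the smallest p in each direction of each fit, of which 2 a direction are printed with identifiers. Groups came from the labels of the samples, where rat numbers name the animal, so libraries of the same number in different regions are paired. The correlation of their deviations from the group mean had a median of 0.0253 for cortex and hippocampus, with a range of −0.381 to 0.632. For cortex and thalamus the median was 0.12 and the range −0.196 to 0.776. Replicates differed by more than counting noise, with chi-square per degree of freedom of 2.05 to 112 in 20 pairs. The libraries left out, the lists and the tests were chosen with earlier results of these data known. The files do not pair identifiers with symbols, and the gene table used here holds no such identifiers, so marker lists, other gene lists, genes named in the study and sequences of promoters were not looked up.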

Additional observations from a re-analysis of the deposited data

Results flagged for a closer look

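In the Dixon test on groups of 4 or 5 libraries, 8 of 36 values stood apart, where chance flags about 1 in 20, and the tests share libraries. Rat 10 had the highest total among TBI libraries, with a gap of 0.722 of the group's range for 5 libraries and 0.978 for 4. Its share of counts in the top 5% of windows had a gap of 0.972 among 4, its r with the other cortex libraries 0.941 and its r with hippocampus 0.879. Sham rat 1 had the same 2 kinds of gap among 4 libraries, 0.919 for the share of counts in the top 5% of windows and 0.952 for the r with the other cortex libraries. Sham rat 4 was the lowest sham library in the window of ENSRNOG00000011901, with a gap of 0.742. With 4 against 4, every value that stood apart belonged to rat 1 or rat 10.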

How the results depend on the processing

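With 5 against 5, the number of called windows was 0 in 19 of 21 alternatives, and the exact test with 1 dispersion called 7 with library totals and 25 with TMM. With 4 against 4 it was 0 in 16 of 19, and library totals gave 6, the exact test with library totals 10 and with TMM 41. Leaving out each rat gave 0 to 0 calls in both fits by the quasi-likelihood test with TMM. Without rat 10, the exact test called 1 (library totals) and 14 (TMM) with 9 libraries and 19 and 22 with 7, and quasi-likelihood with library totals called 5 with 7, all lower in TBI. The cause of these differences was not tested, beyond the values without rat 10. At the unadjusted threshold the counts ran from 41 to 1127 with 5 against 5 and from 152 to 1412 with 4 against 4. Those with library weights were 1086 and 1282, and with 1 surrogate variable 805 and 968. The log2 fold changes of the 8 printed windows kept their sign in each alternative of their own fit, and ENSRNOG00000002413 passed the adjusted threshold under the exact test with 1 dispersion. For the interactions, rat as a replicate block gave 0 calls for hippocampus (308 at the unadjusted threshold) and 0 for thalamus (279), and each of the other alternatives gave 0. In the block without rats 4 and 6, chosen after seeing the data, the smallest adjusted p was 0.905 and 0.0987. Within the cortex no paired analysis was possible because TBI and sham are different rats. The library measures kept their direction in 4 against 4. The gene list counts were not run, because no symbols were at hand. The share of intervals within 2-fold with 5 against 5 was 51.9% in the class of lowest level, 98.4% in the middle class and 83.9% in the highest, and the median SD of log2 CPM was 0.46, 0.28 and 0.38 in sham and 0.59, 0.31 and 0.52 in TBI. The part of depth in the lowest class was not tested.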
